A study of Mus musculus with 2 samples.

Results

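The cells described here are dermal macrophages of mouse skin that carry Cd163 and Folr2, chosen by their unique molecular identifiers (UMIs, counts of captured RNA molecules). A cell was a member if it had at least 5 UMIs of C1qa, C1qb and C1qc together, at least 2 UMIs of Cd163 and Folr2 together and fewer than 3 UMIs of Ly6c2. It also had to have fewer than 20 UMIs of S100a8 and S100a9 together, no UMI of Cd3e, and fewer than 5 UMIs of Mmp12, Pdpn and Arg1 together. Of 14146 cell barcodes, 12558 had 200 genes or more and no more than 10% of UMIs from mitochondrial genes, and 194 of these were members. The members numbered 118 of 4970 kept control cells and 76 of 7588 kept cells of DPCP-treated skin. The rule was read from the same counts as everything below, so the genes it uses are described and not tested.

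The study asked about macrophages and hair growth in contact hypersensitivity, and it profiled immune cells of mouse skin. Full-thickness skin was digested with Liberase, and CD45+ (leukocyte) cells were sorted and sequenced in droplets with a 3' kit. The control group is skin labelled day 0, and the treated group is skin at day 2 of challenge with diphenylcyclopropenone (DPCP), a contact sensitizer that causes an allergic dermatitis. Each condition is 1 multiplexing tag in 1 pooled library, and the labels used here do not give the number of mice behind a tag, their strain, age or sex. With 1 tagged sample a condition there is no test between conditions. The intervals below are exact 95% intervals for counting error only and say nothing of variation between mice.

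Macrophages that live in the dermis lie along vessels, nerves and hair follicles and take up debris, haemoglobin and dead cells. Cd163 is the scavenger receptor for haemoglobin bound to haptoglobin, and Folr2 is the macrophage folate receptor beta. Both are known marks of tissue macrophages that sit near vessels. In the mm10 annotation of GENCODE, Cd163 lies at chr6:124304656-124330527 on the plus strand and Folr2 at chr7:101839988-101857194 on the minus strand. C1qa, C1qb and C1qc encode the chains of complement C1q, which macrophages themselves make. In allergic skin inflammation such macrophages meet neutrophils and monocytes that enter from the blood, and they respond to cytokines through STAT3, STAT6 and NF-kappaB.

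Depth per member cell was much the same in both conditions. The 118 control members had a median of 11587.5 UMIs and 3503.5 genes a cell, with 2105 UMIs in the lowest cell and 47567 in the highest. The 76 DPCP members had a median of 11239 UMIs and 3587 genes, with a range from 2505 to 58504. The summed libraries held 1592863 and 948165 UMIs, so 3 counts, used as the floor for a count of 0, were 1.88 CPM (UMIs per gene scaled to the same total in both conditions) in the control sum and 3.16 CPM in the DPCP sum. The own tag made up a median of 98.8% of the UMIs of both tags in control members and 93.4% in DPCP members, and 2 DPCP members were under 80%. No barcode was shared by both conditions. Among the kept DPCP cells, 45.8% were S100a8/S100a9-rich (at least 100 UMIs of these neutrophil genes, with fewer than 5 of C1q and no Cd3e), against 1.51% in control.

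The members were macrophages by their markers. All 6 general macrophage markers, Adgre1, Csf1r and Cd68 among them, were detected in both conditions, with summed levels of 1693 CPM in control members and 2226 CPM in DPCP members. Adgre1, which encodes F4/80, had UMIs in 113 of 118 control and 73 of 76 DPCP members, at 555.6 and 563.2 CPM. Csf1r, the receptor of the macrophage growth factor, was at 472.7 and 505.2 CPM. Both genes were at nearly the same level in the 2 conditions.

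The word resident was less clear from the data. Ccr2, the chemokine receptor by which monocytes leave the marrow, had UMIs in 115 of 118 control and 74 of 76 DPCP members, at 1548 and 1441 CPM. T cells of the same samples (183 control and 134 DPCP cells, median depths 9283 and 8637 UMIs) serve below as cells that should lack macrophage genes. They had Cd3e, at least 20 UMIs of 6 T cell genes, fewer than 5 of C1q and fewer than 20 of S100a8 and S100a9. The own tag made up a median of 94.5% in control T cells and 71.2% in DPCP T cells. Of the DPCP T cells 92 were under 80%, so their condition is less sure than that of the members. Their Ccr2, which some T cells make, was at 527.5 and 320.5 CPM. Timd4, which marks long-lived resident macrophages in several tissues, had 2 UMIs in the control members and 1 in the DPCP members. Lyve1, a hyaluronan receptor of macrophages along vessels, had UMIs in 13 control and 14 DPCP members, and in no T cell. The members are therefore called Cd163/Folr2 macrophages here, by their rule.

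Endothelial, fibroblast, keratinocyte and T cell markers were at or near 0 in the members. All 4 endothelial markers were at 0 in both conditions, and the 5 fibroblast markers had 6 UMIs in each condition. The 4 keratinocyte markers had 9 and 4 UMIs, and the T cell markers were at 18.2 and 21.1 CPM with no more than 3 UMIs in a cell. The B cell markers came from 1 control cell with 17 UMIs.
Markers of other myeloid cells were found at higher levels. The 6 monocyte markers summed to 1719 and 1918 CPM, and among them Vcan was at 6.28 and 176 CPM, Chil3 at 7.53 and 87.5 CPM and Plac8 at 116 and 177 CPM. The 7 neutrophil markers summed to 596 and 654 CPM in members and to 542 and 736 CPM in T cells. The 6 dendritic markers summed to 81.0 CPM in control members and 210 CPM in DPCP members, with at least 5 UMIs in 6 and 7 cells and Xcr1 at 0. Cd209a, a lectin among them, went from 38.3 to 184 CPM, whereas Dpp4 went from 35.8 to 16.9 CPM. The 3 Langerhans markers summed to 8.16 and 100 CPM, and 1 DPCP member held 51 of the 95 UMIs. The part of these other cell types' RNA in the results was not tested.

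The share of members among kept cells was 2.37% (1.97 to 2.84) in control and 1.0% (0.790 to 1.25) in DPCP. The denominators differ, since the DPCP sample held many S100a8/S100a9-rich cells. Cells with an own tag share of at least 80% gave 1.57% in DPCP. With the rule applied to counts thinned to 3000 UMIs, among kept cells of at least that depth, the shares were 1.09% and 0.799%, closer together than without thinning. Among all cells that met the limits on C1q, S100a8 and S100a9, and Cd3e, 688 in control and 293 in DPCP, members made up 17.2% (14.4 to 20.2) and 25.9% (21.0 to 31.4). The share of members was thus lower per kept cell and higher per C1q cell. In the order of the rule, the limit of Ly6c2 took the control cells from 773 to 566 and the DPCP cells from 391 to 364. The limit on Cd163 and Folr2 left 140 and 101, that on S100a8 and S100a9 left 137 and 84, and that on Cd3e left 119 and 76.

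Cd163 and Folr2 marked overlapping but unequal groups of cells. Cd163 had UMIs in 73 control and 63 DPCP members, with up to 23 and 72 UMIs in a cell, and was at 189 and 586 CPM. Folr2 had UMIs in 80 and 51 members, with up to 19 and 24 UMIs in a cell, at 220 and 257 CPM. Both genes were detected together in 35 of 118 control members, 29.7% (21.6 to 38.8), and in 38 of 76 DPCP members, 50% (38.3 to 61.7). Cd163 alone was found in 38 and 25 members, and Folr2 alone in 45 and 13. More of the DPCP members therefore carried both genes. As genes of the rule they are given with no reading of the change. C1qa was at 1896 and 2424 CPM.

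**Figure D1:**
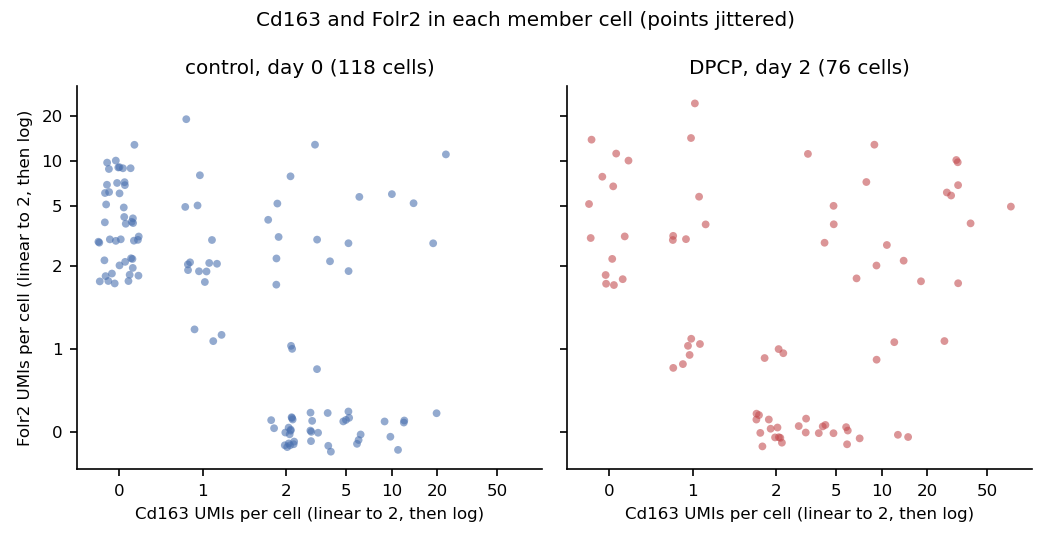
Cd163 UMIs (horizontal) and Folr2 UMIs (vertical) of each member cell, control on the left and DPCP on the right, on axes that are linear up to 2 and logarithmic above, with points jittered. Cd163 reaches 72 UMIs in a DPCP cell and 23 in a control cell, and many cells lie along 0 on an axis because they hold only 1 of the 2 genes.

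In control, several genes that mark tissue macrophages were higher in cells with more Cd163 and Folr2, and others were not. The genes shown were chosen after their values were seen. In control members with 2, 3 to 4, 5 to 9 and 10 or more Cd163 and Folr2 UMIs (33, 37, 32 and 16 cells), Pf4, a platelet factor chemokine that macrophages also make, was at 229, 523, 795 and 1415 CPM. In the same order Selenop, the plasma selenium carrier, was at 446, 679, 1452 and 2052 CPM. Igf1, a growth factor for hair follicles and repair, was at 50.3, 147, 255 and 280 CPM.
The same held for Maf, a transcription factor of tissue macrophages, at 428, 862, 1125 and 1808 CPM. Ccl24, a chemokine of these cells, did not follow the order, at 290, 257, 262 and 320 CPM, and Fcrls, a scavenger-like receptor, was at 965, 938, 845 and 839 CPM. Ccr2 did not follow it, at 1450, 1649, 1602 and 1431 CPM. Neither did H2-Aa, a chain of MHC class II, at 5336, 5278, 5458 and 4756 CPM.
Retnla, a gene of alternative activation, ran the other way, at 35883, 28243, 22418 and 16778 CPM. Fn1, fibronectin, was likewise at 3806 CPM in the lowest tier and 1245 CPM in the highest. The 91 control C1q cells with 1 UMI, just outside the rule, held 81.8 CPM of Pf4 and 234 CPM of Selenop.

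In DPCP members the same tiers held 23, 14, 13 and 26 cells, so the highest tier was larger. Pf4 was at 236, 174, 285 and 1021 CPM, and Selenop at 632, 689, 1140 and 2407 CPM. Igf1 was at 62.8, 0, 33.2 and 191 CPM. In DPCP, Pf4 and Igf1 thus did not follow the order, though both were highest in the tier of 10 or more UMIs. The 31 DPCP cells with 1 UMI held 218 CPM of Pf4 and 561 CPM of Selenop, nearer to the lowest tier than in control. Cells with Langerhans markers were not left out of the cells with 1 UMI in either condition. The tiers share the depth of their cells, since a cell with more UMIs has more chances to pass a limit: the median depth was 9268 UMIs in the lowest and 11656 in the highest control tier, and 8352 and 16061 in DPCP. Its part in the pattern was not tested.

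**Figure D2:**
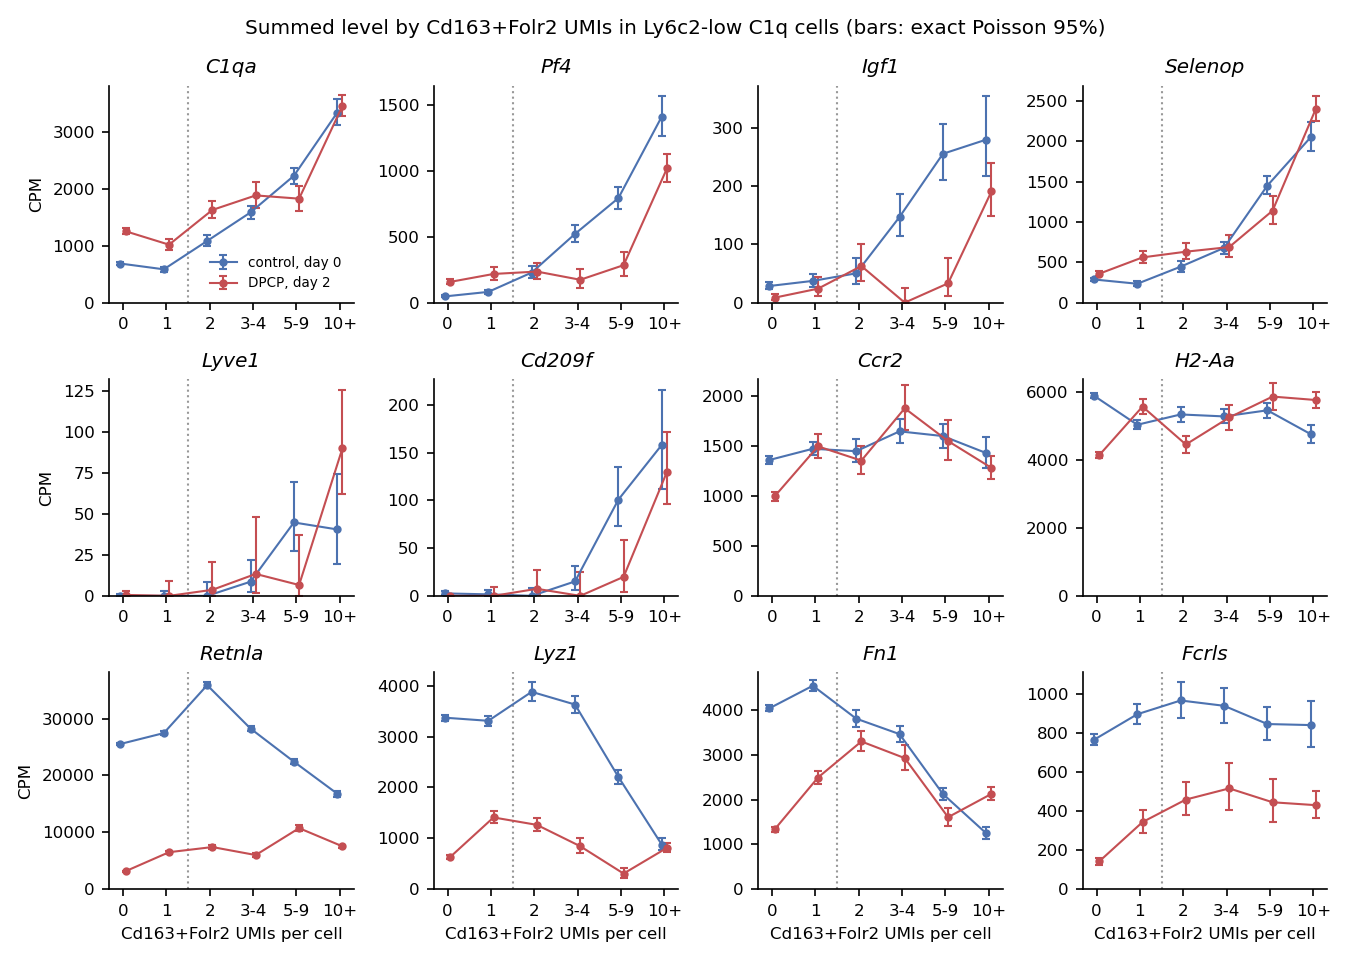
Summed level (CPM, linear axis from 0) of 12 genes against the Cd163 and Folr2 UMIs of a cell, control in blue and DPCP in red, with exact Poisson 95% intervals; the dotted line marks the limit of the rule, with cells of 0 and 1 UMI to its left. In control Selenop goes from 446 CPM in the tier with 2 UMIs to 2052 CPM in that with 10 or more, while Ccr2 and H2-Aa stay nearly level. Cells with Langerhans markers are not left out of the tiers of 0 and 1 UMI.

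The members were set beside the other C1q cells of control skin. The comparison cells were 371 C1q cells with fewer than 2 Cd163 and Folr2 UMIs and without the cells with at least 5 Langerhans marker UMIs. Of 8636 compared genes, 1.40% were at least 2-fold higher and 1.59% at least 2-fold lower in the members. Cd209f, a C-type lectin, was at 57.1 CPM in members and 2.41 in the others, and Cbr2, a carbonyl reductase, at 136 and 8.54 CPM (ratio 15.9, 11.3 to 23). Gas6, the bridge between dying cells and the receptor Mertk, was at 111 and 8.98 CPM (ratio 12.4, 8.77 to 17.8). These genes were each found in at least 18 member cells. Adgrl3, an adhesion receptor, was lower, at 0.628 CPM with 1 UMI in the members against 117 CPM. These sets differ by construction in Cd163 and Folr2, and the values are a description.

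More genes differed from the 179 Ly6c2-positive C1q cells of control, which carry an antigen of classical monocytes. Against them 4.32% of 7528 genes were at least 2-fold higher and 4.28% at least 2-fold lower in the members. Plac8, high in blood monocytes, was at 116 CPM in members and 1498 CPM in these cells, and Ly6a at 45.8 and 1217 CPM. Fcgr1, the high-affinity IgG receptor, was at 72.2 and 462 CPM. The members thus had less of each of these. Ccl24, a chemokine for eosinophils, was higher, at 277 against 35.9 CPM (ratio 7.73, 6.08 to 9.95).

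In DPCP skin 2.22% of 6175 genes were at least 2-fold higher and 1.39% at least 2-fold lower in the members than in the matching 118 C1q cells. Cd209d, a C-type lectin, was at 156 and 11.4 CPM (ratio 13.7, 8.04 to 25.1), with UMIs in 19 of 76 members. Rcn3, an endoplasmic reticulum protein, was at 63.3 CPM in 23 members and 1.52 CPM in the others, with 2 UMIs there (ratio 41.6, 11.0 to 352). Chil3, a chitinase-like protein, was lower in the members, at 87.5 against 312 CPM, and Gsr, glutathione reductase, at 42.2 against 166 CPM. Of the lectins Cd209d and Cd209f, the latter had no UMI in the 118 other cells.

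Between conditions, 6486 genes with at least 50 summed UMIs were compared in the members. In DPCP 216 (3.33%) were at least 2-fold higher and 153 (2.36%) at least 2-fold lower, and the median log2 ratio of all compared genes was 0.03. The interval excluded 1 for each of these genes. The minimum of 50 summed UMIs and the 2-fold limit already require this, so it adds no support. Since a few cells can carry a gene, each was also computed without its richest cell in each condition: 189 of the 216 higher genes and 153 of the 153 lower ones were still at least 2-fold apart. For 16 of the higher genes 1 DPCP cell held over 50% of the UMIs, and 209 of the 216 higher genes were found in at least 10 DPCP members. Of all compared genes 98.7% were found in at least 10 members of each condition, so the 209 do not set the higher genes apart.

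**Figure D3:**
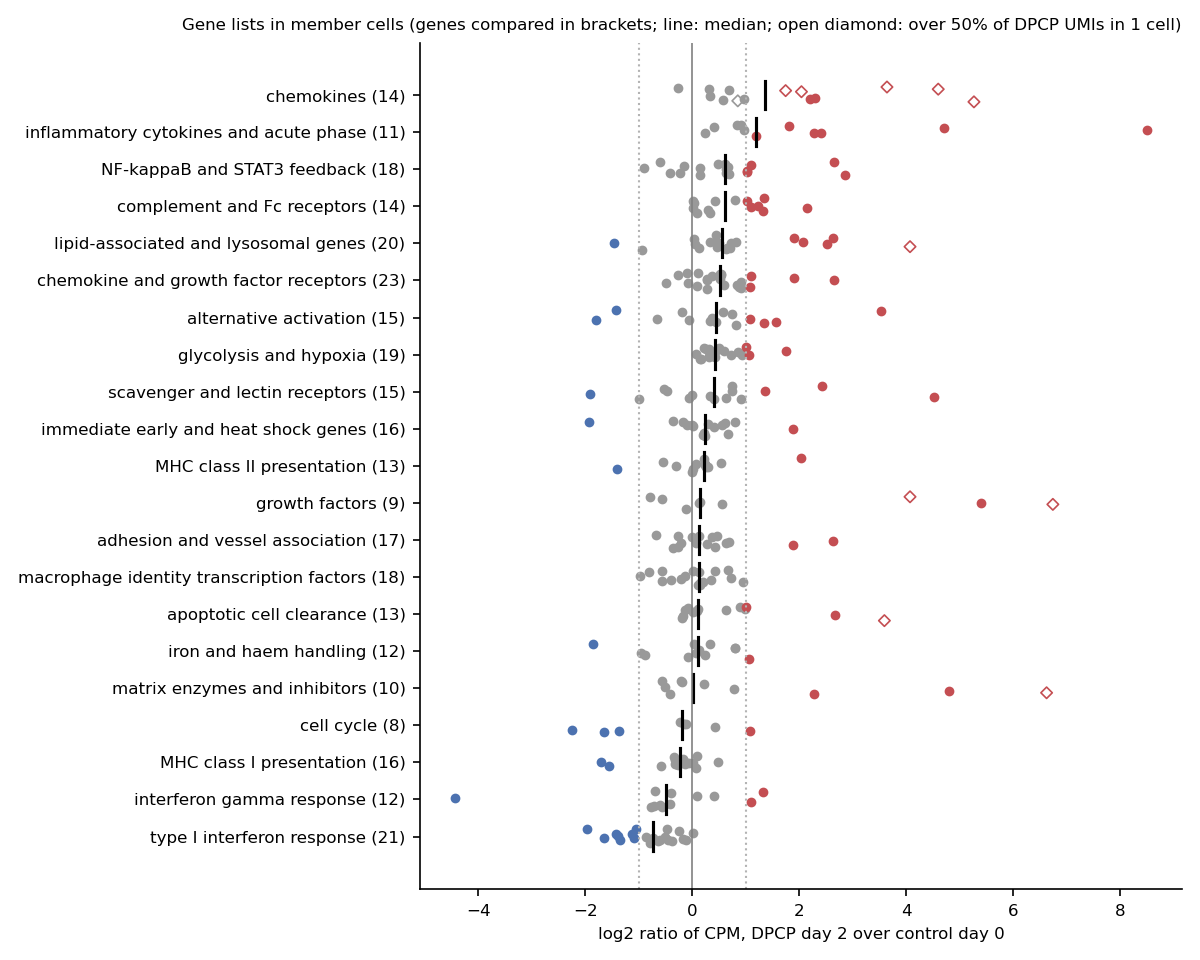
Log2 ratio of CPM, DPCP over control, of each compared gene (points) in 21 gene lists, with the list's median as a black line, dotted lines at the 2-fold limits, red and blue points past them, and open diamonds for genes with over 50% of their DPCP UMIs in 1 cell. The median is 1.36 for chemokines, many of them open diamonds, and -0.73 for the type I interferon response, against 0.03 over all compared genes.

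Acute phase and inflammatory genes were higher. The list of inflammatory cytokines and acute phase genes had 6 of 11 compared genes at least 2-fold higher, 0 lower and a median log2 ratio of 1.20. Lrg1, an acute phase glycoprotein that acts on vessels, was at 8.79 CPM in control members and 230 CPM in DPCP members (ratio 26.2, 15.3 to 48.6) and had UMIs in 14 of 118 and 51 of 76 members. The gene lies at chr17:56119678-56122001 on the minus strand (mm10). No control member had more than 1 Lrg1 UMI, and the DPCP members reached 13. Thinned to 2000 UMIs a cell, 3.39% of control and 40.8% of DPCP members had an Lrg1 UMI, against 1.64% and 8.21% of T cells. Saa3, a serum amyloid, went from 1.26 to 460 CPM, with 2 control counts (ratio 366, 101 to 3034) and UMIs in 20 DPCP members. Most DPCP members had none of it, and a single cell held 196 of its 436 UMIs. T cells had 1.45 and 43.5 CPM of Saa3. Il1rn, the antagonist of interleukin 1, was 31.4 and 168 CPM (ratio 5.34, and 3.81 without its richest cells). With members limited to fewer than 5 S100a8 and S100a9 UMIs (40 and 21 cells) the median of this list was 0.03. That median covers only the list genes with at least 50 summed UMIs in those cells, which may be fewer than the 11.

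Chemokines were higher in 7 of 14 compared genes and lower in 0, with a median of 1.36, which was 0.82 without the richest cells. Cxcl2, a neutrophil attractant, was at 94.2 CPM in control members and 461 CPM in DPCP members (ratio 4.89, 4.06 to 5.93), with UMIs in 79 of 118 and 57 of 76 members. A single DPCP cell held 184 of the 437 UMIs, and the ratio without the richest cells was 2.95. Ccl8, a chemokine for monocytes and lymphocytes, was 11.9 and 290 CPM, but 175 of 275 DPCP UMIs came from 1 cell and only 12 members had a UMI (ratio 24.3, and 12 without the richest cells). Ccl4 was 42.7 and 176 CPM, and its ratio of 4.13 became 1.86 without the richest cells. Much of the chemokine signal thus sat in few cells. Ppbp came wholly from 1 DPCP cell with 69 UMIs. Ccl6, a chemokine of myeloid cells, was 2821 and 3506 CPM, a ratio of 1.24. In members with fewer than 5 S100a8 and S100a9 UMIs the log2 ratios of Cxcl2, Cxcl3 and Ccl4 were -0.35, -0.56 and -1.44. Their counts and intervals in those cells are not given. Some of these counts may lie under the minimum of summed UMIs for a compared gene. In the S100a8/S100a9-rich cells Cxcl2 was 345.5 and 6656 CPM.

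Receptors for cytokines were higher in 4 of 23 compared genes. Il4ra, the receptor chain for interleukins 4 and 13, was at 43.9 CPM in control members and 276 CPM in DPCP members (ratio 6.29, 4.81 to 8.31), with UMIs in 48 and 63 members. At 2000 UMIs a cell 13.6% of control and 42.1% of DPCP members had an Il4ra UMI, and 8.20% and 15.7% of T cells. Il4ra lies at chr7:125552120-125579474 on the plus strand (mm10). The groups overlap, since a control cell reached 5 UMIs and some DPCP cells had none. Without the richest cells the ratio was 6.31. Socs3, the feedback inhibitor of STAT3, was 9.42 and 68.6 CPM (ratio 7.28, 4.11 to 13.7), and T cells were 15.9 and 77.2 CPM. Csf2rb2 and Ccr1 were higher too, with ratios of 3.73 and 2.15. The list of NF-kappaB and STAT3 feedback genes had 5 of 18 higher, with a median of 0.62.

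Growth factors differed gene by gene. Of 9 compared, 3 were at least 2-fold higher: Nrg1, Inhba and Spp1. Nrg1, a neuregulin that acts on epithelial ERBB receptors, had no UMI in 118 control members and 76 UMIs in 19 DPCP members, at 80.2 CPM, at least 42.6-fold higher against the floor of 3 counts. No member held more than 14 of those UMIs. In C1q cells with 0 Cd163 and Folr2 UMIs, Langerhans marker cells not left out, Nrg1 was 1.71 and 31.9 CPM, and in those with 1 UMI 0 and 81.5 CPM. The S100a8/S100a9-rich cells had 0 Nrg1 UMIs of 376262 UMIs in 75 control cells, and 720 of 20351748 in 3474 DPCP cells. T cells had 13 of 2072125 UMIs in 183 control cells and 7 of 1541427 in 134 DPCP cells. These are counts and not scaled levels. Inhba came from 1 DPCP cell with 64 UMIs. Igf1 was lower, at 171 and 99.1 CPM (ratio 0.578, 0.453 to 0.734), with UMIs in 60 of 118 and 26 of 76 members. Igf1 was at or near 0 in T cells in both conditions. Thinned to 2000 UMIs, 30.5% of control and 17.1% of DPCP members had an Igf1 UMI.

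Spp1, osteopontin, is the gene in the title of the study. In the members it was at 32.0 CPM in control members and 540 CPM in DPCP members (ratio 16.9, 12.6 to 23). The DPCP level rested on 1 cell, which held 450 of 512 UMIs. Without the richest cells the ratio was 2.24. In the other cells Spp1 was low: UMIs were found in 41 of 118 control and 44 of 76 DPCP members, with at most 4 in a control cell, and the median DPCP member had 1. T cells, read for RNA from other cells, held 82 Spp1 UMIs over 183 control cells and 105 over 134 DPCP cells. Whether the low Spp1 of most members was their own RNA was not tested. The rich cell had 16607 UMIs, an own tag share of 98.0%, 13 Cd163 UMIs, 10 C1qa UMIs, no Folr2 UMI and 8 UMIs of S100a8 and S100a9. It also held the 64 Inhba UMIs, 79 of Cxcl2 and 41 of Thbs1, and it was the main source of 6 of the higher genes. In the S100a8/S100a9-rich cells of DPCP Spp1 was at 2699 CPM, against 55.8 in control.

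**Figure D4:**
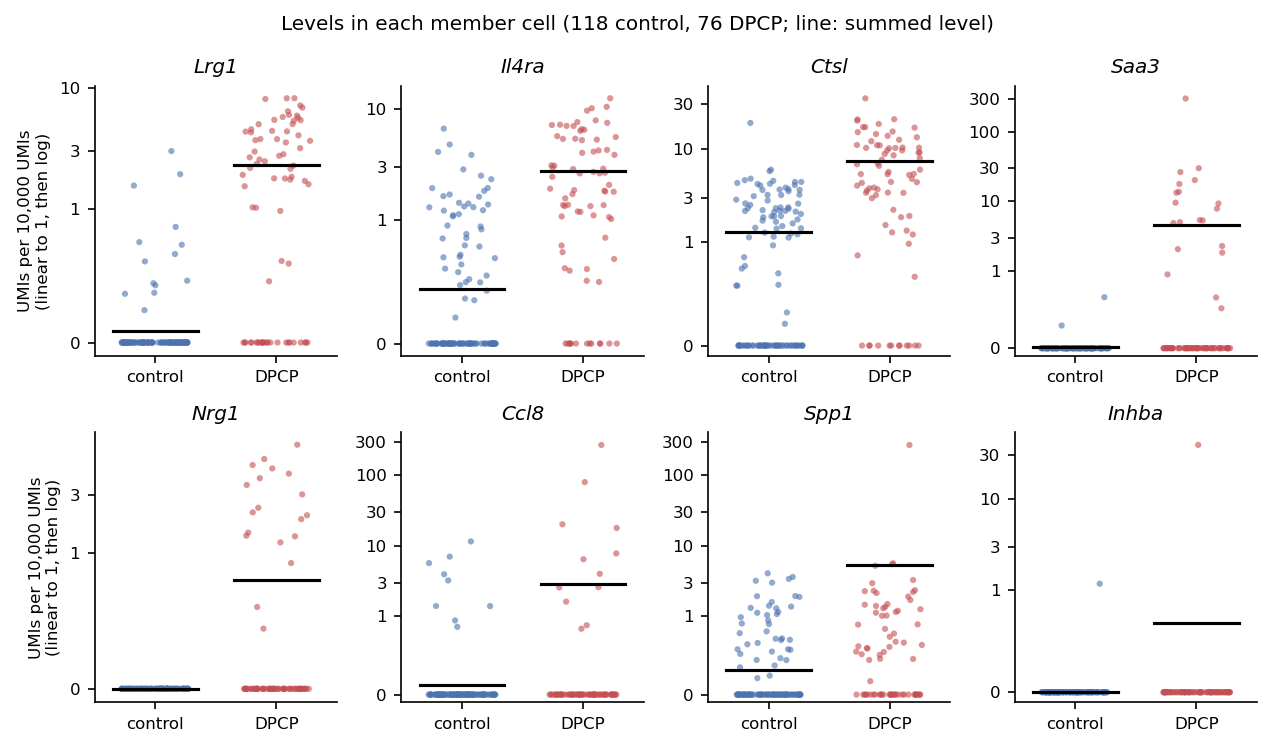
Level of 8 genes in each member cell (UMIs scaled to the same depth per cell, axis linear at low values and then logarithmic), control in blue beside DPCP in red, with the summed level as a black line. Lrg1, Il4ra and Ctsl are higher in many DPCP cells, whereas the DPCP levels of Spp1 and Inhba come from 1 cell with 450 and 64 UMIs.

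Complement and Fc receptor genes were higher in 6 of 14 compared genes outside the rule, with a median of 0.61, and 0 were lower. C4b, a complement factor, was at 262 and 618 CPM (ratio 2.36, 2.08 to 2.68) with UMIs in 65 of 118 and 52 of 76 members. Fcgr2b, the inhibitory Fc receptor, was 478 and 1020 CPM (ratio 2.13, 1.94 to 2.35), with UMIs in 108 and 75 members. The ratios of C4b and Fcgr2b without the richest cells were 2.36 and 2.13. C3, among the higher genes, had a log2 ratio of -1.82 in members under 5 S100a8 and S100a9 UMIs. Its counts in those cells are not given and may lie under the minimum of summed UMIs for a compared gene.

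Uptake and lysosome genes were mixed. Ctsl, the lysosomal protease cathepsin L, was 129 CPM in control members and 736 CPM in DPCP members (ratio 5.72, 4.89 to 6.72), with UMIs in 68 of 118 and 64 of 76 members. Ctsl lies at chr13:64359337-64370890 on the minus strand (mm10). After thinning 25.4% and 59.2% of members had a UMI, and T cells stayed at 2.19% and 1.49%. Ctsl was higher in DPCP in the C1q cells outside the rule too. It was 63.1 and 446 CPM in those with 0 Cd163 and Folr2 UMIs, and 49.2 and 345 CPM in those with 1. Cells with at least 5 Langerhans marker UMIs were not left out here. They were 13 of 384 such cells in control and 63 of 181 in DPCP, and their part in the Ctsl levels was not tested. Ifi30, a lysosomal thiol reductase for antigen processing, was 179 and 730 CPM (ratio 4.08, 3.55 to 4.70). Lists of lipid and lysosomal genes had 5 of 20 higher and 1 lower.
Cd209d was 28.9 and 156 CPM (ratio 5.41, 3.86 to 7.70), whereas T cells went from 11.1 to 3.89 CPM. Mertk, the receptor for dying cells, was 145 and 292 CPM (ratio 2.01), and its ligand Gas6 111 and 221 CPM (ratio 1.99). Mrc1, the mannose receptor CD206, was 1499 and 2522 CPM, a ratio of 1.68 (1.59 to 1.78), in 118 and 75 members. Cd36, a receptor of oxidised lipids, was lower, at 159 and 42.2 CPM (ratio 0.266, 0.185 to 0.372). Fth1, ferritin heavy chain, was 1946 and 4065 CPM, but 1116 of its 3854 DPCP UMIs lay in 1 cell, and its log2 ratio was -0.27 in members with fewer than 5 S100a8 and S100a9 UMIs.

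Retnla, Ear2, Lpl and Lyz1 were at least 2-fold lower. Retnla was at 26933 CPM in control members and 7752 CPM in DPCP members (ratio 0.288, 0.281 to 0.295) with UMIs in 117 of 118 and 76 of 76 members. T cells, read here for RNA from other cells, were at 3630 and 463 CPM and so lower in DPCP as well. Ear2, a ribonuclease, was 1124 and 421 CPM (ratio 0.374), and Lpl, lipoprotein lipase, 2067 and 751 CPM (ratio 0.363), against 872 and 88.2 CPM in T cells. Lyz1 was 2874 and 865 CPM while its near copy Lyz2 was 6611 and 6477 CPM, and reads of the 2 genes can be split between them. Fcrls was 904 and 454 CPM (ratio 0.502). Of 15 alternative activation genes 4 were higher and 2 lower.

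The sums of Pf4 and Ccl24 over all members, 2 further genes of the marker list, differed little between conditions. Pf4 was 657 and 546 CPM (ratio 0.832, 0.747 to 0.925), with UMIs in 80 of 118 and 47 of 76 members. By tier of Cd163 and Folr2 UMIs, as above, it was at 229, 523, 795 and 1415 CPM in control members. DPCP members were at 236, 174, 285 and 1021 CPM, lower than control from 3 to 4 UMIs upward. The highest tier held 16 of 118 control and 26 of 76 DPCP members. Ccl24 was 277 and 411 CPM (ratio 1.48, and 1.26 without the richest cells), with UMIs in 71 and 39 members. Pf4 was not particular to the members. In DPCP it was at 1116 CPM in the 18 C1q cells with at least 5 UMIs of Mmp12, Pdpn and Arg1 together. In control 7 such cells held 225 CPM. The Ly6c2-positive C1q cells held 305 CPM of Pf4 in control and 200 CPM in DPCP. In control they also held 181 CPM of Folr2, against 220 CPM in members. Of the 18 compared macrophage transcription factors 0 passed 2-fold in either direction. Klf4 and Mef2c were lower, at ratios of 0.572 and 0.512.

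The type I interferon response was lower. Of 21 compared genes 8 were at least 2-fold lower and 0 higher, with a median log2 ratio of -0.73, and 0.03 over all compared genes. Ifit1, which binds foreign RNA, was at 65.9 CPM in control members and 21.1 CPM in DPCP members (ratio 0.320, 0.188 to 0.520), with UMIs in 30 of 118 and 13 of 76 members. Rsad2, which encodes viperin, was 110 and 41.1 CPM (ratio 0.372, 0.256 to 0.529), with UMIs in 41 and 16 members. T cells did not follow, with 4.83 and 14.9 CPM of Ifit1 and 12.1 and 12.3 CPM of Rsad2. The other 6 were Ifit2, Ifit3, Ifi44, Oasl1, Usp18 and Phf11b, and Oasl1 was 72.2 and 28.5 CPM. Irf7, a transcription factor of the interferon response, was at 96.7 and 89.6 CPM. Gbp2b, a guanylate binding protein of the interferon gamma response, was 45.8 CPM in control members and 2.11 CPM in DPCP members, with 2 DPCP counts (ratio 0.0460, 0.00547 to 0.172) and UMIs in 29 of 118 control members. Of the 12 compared interferon gamma genes 2 were higher and 1 lower. When the rule was applied to thinned counts Ifit1 had a log2 ratio of 0.27 over 48 and 46 cells. Its counts in those cells are not given and may lie under the minimum of summed UMIs for a compared gene.

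The promoters of Ifit1, Rsad2 and Gbp2b, chosen after their values were seen, are shown because these interferon genes were lower together. All 3 genes lie outside the rule. Each line gives bases 160 to 31 before the gene start on the gene's strand from RefSeq, build GRCm38.p6, and capitals mark matches to GAAA, any 2 bases and GAAA, the core of the interferon-stimulated response element, which here lie on the opposite strand. Coordinates are chr19:34640729-34640858 for Ifit1, plus strand, chr12:26456483-26456612 for Rsad2, minus strand, and chr3:142594687-142594816 for Gbp2b, plus strand.
Ifit1: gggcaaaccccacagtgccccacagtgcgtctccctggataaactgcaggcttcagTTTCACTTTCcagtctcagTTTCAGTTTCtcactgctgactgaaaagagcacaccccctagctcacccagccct
Rsad2: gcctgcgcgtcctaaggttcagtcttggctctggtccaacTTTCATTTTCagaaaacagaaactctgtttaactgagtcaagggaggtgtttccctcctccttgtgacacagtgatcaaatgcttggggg
Gbp2b: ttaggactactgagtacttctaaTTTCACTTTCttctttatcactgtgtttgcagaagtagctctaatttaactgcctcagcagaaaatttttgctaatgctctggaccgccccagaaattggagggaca
Ifit1 holds 2 matches and the other 2 genes hold 1 each. A promoter of the table was 250 bases before to 50 after the start, searched on both strands for the same motif, overlapping matches included, and 943 of 27025 promoters (3.49%) held it. Among the compared genes it was 196 of 5238 (3.74%). Of the type I interferon genes that were compared, 10 of 18 with a promoter in the table held it, and of those at least 2-fold lower 4 of 7. Among the genes at least 2-fold higher in DPCP 11 of 178 (6.18%) held it, and among those at least 2-fold lower 9 of 119 (7.56%). Of the interferon gamma genes that were compared 8 of 10 held it. A match is a description of letters and shows no binding.

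Antigen presentation differed little. Cd74, the invariant chain, was 8863 and 10537 CPM (ratio 1.19), and H2-Aa 5263 and 5322 CPM (ratio 1.01). Of 13 class II genes 1 was higher, Ifi30, and 1 lower, H2-DMb2, at 69.7 and 26.4 CPM (ratio 0.378). Of 16 class I genes 0 were higher and 2 lower, H2-Q6 and H2-Q7, near-identical copies whose reads may be split.

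Of 20 listed cell cycle genes 8 had enough UMIs to be compared, of which 1 was higher and 3 lower. Ccnd1, cyclin D1, was 89.8 and 19.0 CPM (ratio 0.211, 0.122 to 0.346) with UMIs in 40 of 118 and 9 of 76 members. T cells went the same way, at 70.0 and 22.1 CPM. Mki67 and Top2a did not reach 50 summed UMIs. The lowest ratios of genes outside the lists included Bank1, an adaptor, at 216 and 48.5 CPM (ratio 0.225, 0.161 to 0.306) with UMIs in 81 and 24 members, and Zbtb7c at 53.4 and 2.11 CPM, with 2 DPCP counts (ratio 0.0395, 0.00471 to 0.147). T cells were 41.0 and 10.4 CPM of Bank1 and 21.7 and 2.60 CPM of Zbtb7c. Mucl1 came from 1 control cell with 168 of 186 UMIs.

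The remaining lists are given by their counts, beside the 3.33% higher and 2.36% lower over all compared genes. Apoptotic cell clearance had 3 of 13 higher (Mertk, Mfge8 and Thbs1) and 0 lower, with a median of 0.12. Matrix enzymes and inhibitors had 3 of 10 higher, with Vcan, a proteoglycan, at 6.28 and 176 CPM (ratio 28.1, 14.9 to 59.6) in 8 and 26 members, while T cells were 7.24 and 86.9 CPM. Glycolysis and hypoxia genes had 3 of 19 higher with a median of 0.44, scavenger and lectin receptors 3 of 15 higher and 1 lower, and adhesion genes 2 of 17. Iron and haem genes had 1 of 12 in each direction, and immediate early and heat shock genes 1 of 16 in each direction.

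Several differences between conditions were seen in the other C1q cells too. In C1q cells with fewer than 2 Cd163 and Folr2 UMIs, Langerhans cells left out, Retnla was 26922 and 6060 CPM, a ratio of 0.225 against 0.288 in the members. Il4ra was 40.3 and 185 CPM (ratio 4.58, 3.77 to 5.58), against 6.29 in the members. Lrg1 was 7.01 and 201 CPM (ratio 28.6, 19.8 to 42.7). These 3 genes thus differed in the same direction in both sets. Ednrb, the endothelin B receptor, was 119 and 252 CPM in members (ratio 2.12, 1.75 to 2.58; log2 ratio -0.11 in members with fewer than 5 S100a8 and S100a9 UMIs) and 65.5 and 60.8 CPM in the other cells (ratio 0.928, 0.716 to 1.19). Cd209d was 8.32 and 11.4 CPM there (ratio 1.37, 0.70 to 2.55) and 5.41 in the members. The difference between the sets was not tested, since each is 1 sample a condition.

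**Figure D5:**
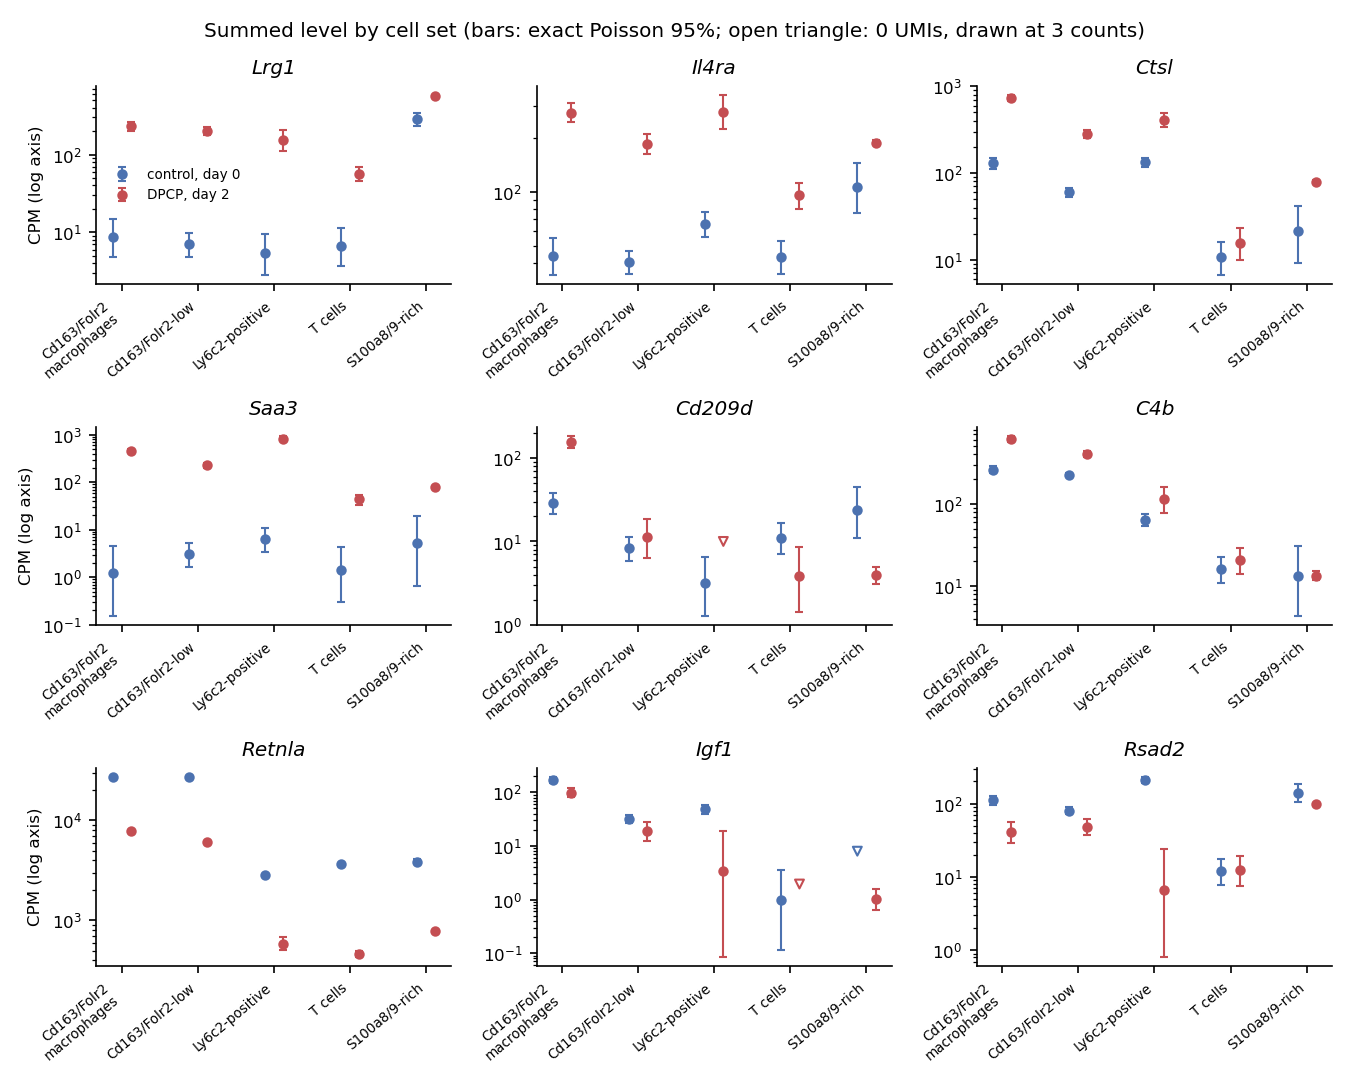
Summed level (CPM, log axis) of 9 genes in the members and in 4 other cell sets, control in blue and DPCP in red, with exact Poisson 95% intervals and open triangles at the floor of 3 counts for a count of 0; the Cd163/Folr2-low set is without Langerhans marker cells. Retnla is lower in DPCP in all 5 sets, and Cd209d is at 156 CPM in DPCP members and 11.4 CPM in the Cd163/Folr2-low cells.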

How the data were processed

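CD45+ cells of control and DPCP-treated mouse skin were profiled in 1 pooled 3' droplet library. The authors deposited a matrix of UMI counts per gene and cell, not normalized; Cell Ranger 7.0.0 stands in the file header, and Cell Ranger 6.1.1, Seurat 4.0.1 and build mm10 in the submitters' processing notes. A barcode took its condition from its suffix, by the order of the deposited aggregation table. Counts were summed over member cells and scaled to a common total (CPM). Ratios were computed for genes with at least 50 summed UMIs, with exact conditional binomial 95% intervals for ratios, exact Poisson intervals for levels and Clopper-Pearson intervals for shares. Gene places come from the GENCODE annotation of mm10. Cells are not replicates, so no test was made. The scripts were tested on simulated counts (Python 3.11.15, numpy 2.4.6, scipy 1.17.1; edgeR 4.0.16 for TMM scaling). No doublets were removed; leaving out the 5% of cells with the highest Scrublet scores (scanpy 1.11.5) was an alternative. Named genes were the 15 highest and 15 lowest ratios at 20 CPM or more, up to 6 members of each of 21 lists (3 of 426 symbols were not matched), the markers, and the 8 highest and lowest ratios against other C1q cells; not all are printed, and a few genes are not reported here. Other genes named from the tiers were chosen after their values were seen. The members and lists were chosen with earlier results of these data known.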

Additional observations from a re-analysis of the deposited data

Results flagged for a closer look

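For 3 genes the DPCP over control ratio ran in opposite directions in the members and in the C1q cells with fewer than 2 Cd163 and Folr2 UMIs. The difference was not tested, since each set is 1 sample a condition. Tpm1, a tropomyosin, had a log2 ratio of -1.04 in members (62.8 and 30.6 CPM) and 1.15 in the other cells (51.5 and 115 CPM). Ltc4s, leukotriene C4 synthase, had -1.68 in members (54.0 and 16.9 CPM) and 1.36 in the others (30.7 and 78.7 CPM). Cd83, an activation marker, had -1.19 in members (43.3 and 19.0 CPM) and 1.53 in the others (30.04 and 86.5 CPM). With cells holding at least 5 Langerhans marker UMIs left out, the values in the other cells were -0.50 for Tpm1, -0.69 for Ltc4s and -1.57 for Cd83, the same sign as in the members. For Ltc4s the interval of that ratio, 0.314 to 1.12, includes 1.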

How the results depend on the processing

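No paired analysis was possible because each condition is 1 tagged sample and no result comes from a test. The alternatives changed the membership rule, cell filter, gene minimum, scaling or cells left out; 4 were added after seeing the data (without the DPCP cell richest in Spp1, without cells with at least 3 dendritic or Langerhans marker UMIs, without each gene's richest cells and, for the C1q cells with fewer than 2 Cd163 and Folr2 UMIs, without Langerhans marker cells). Of 376 list medians under alternatives 367 stayed within the 95% order-statistic interval of the median as reported, and 9 moved outside it. That interval is wide for short lists, and for the 8 cell cycle genes it runs from the lowest to the highest ratio. Staying inside it is thus a weak check. The sign changed for 24 medians, 3 of them among the 9 (scavenger receptors, alternative activation and clearance). Of 158 named genes 94 moved and 10 reversed with fewer than 5 S100a8 and S100a9 UMIs, 74 and 6 under the thinned rule, and 64 and 4 with at least 5 Cd163 and Folr2 UMIs. The control share of 2.37% was 1.89% with no cell filter, 1.73% with at least 20 C1q UMIs and 1.09% with the rule on counts thinned to 3000 UMIs (DPCP 0.799%); the DPCP share of 1.0% was 1.57% where the own tag was at least 80%. With at least 1 Cd163 and Folr2 UMI the shares were 4.21% and 1.41%, and 327 genes were higher. With at least 5 (48 and 39 cells) they were 0.966% and 0.514%, 138 genes were higher, the clearance list median was -0.38, and the log2 ratios of Mmp14 (-1.19), Mfge8 (-0.34), Cd9 (-0.28) and Ndrg1 (-0.023) reversed. With fewer than 5 S100a8 and S100a9 UMIs (40 and 21 cells) the shares were 0.805% and 0.277%, and 84 genes were higher and 71 lower of only 1879 compared. List medians, over only the list genes still compared, were then -0.79 (scavenger receptors), 0.054 (chemokine and growth factor receptors), 0.31 (class II) and 0.026 (inflammatory). The others were -0.51 (alternative activation), 0.035 (lipid and lysosomal) and 1.14 (glycolysis). Reversed genes were Cxcl3 (-0.56), Cxcl2 (-0.35), C3 (-1.82), Ccl4 (-1.44), Fabp5 (-0.46), Ednrb (-0.11), Fth1 (-0.27), Stmn1 (0.76), Diaph3 (0.026) and Mucl1 (0.76). With no limit on S100a8 and S100a9, 333 genes were higher. Under the thinned rule (48 and 46 cells) 137 were higher, the receptor median was 0.17, and Pcdh7 (-0.049), Mfge8 (-0.53), Ndrg1 (-0.27), Ifit1 (0.27), Egr2 (0.14) and Mucl1 (1.73) reversed. Without the cells with dendritic or Langerhans markers Pcdh7 reversed (-0.70). For the named genes that reversed, counts and intervals under the alternatives are not given. Some of these counts may lie under the minimum of summed UMIs for a compared gene. A minimum of 20 summed UMIs gave 441 higher and 364 lower genes, and 200 gave 55 and 29, since more or fewer genes were compared. TMM scaling gave 197 higher and 188 lower, and the mean over cells 203 and 207. The causes of the other changes were not tested.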
